A study of Equus caballus with 32 samples.

Results

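The interleukin 1 system and the inflammasome were followed through 9 genes in the venous blood of 32 Welsh Pony mares: the cytokines IL1B and IL18, the antagonist IL1RN, the receptors IL1R1, IL1R2 and IL1RAP, and the inflammasome genes NLRP3, PYCARD and CASP1. Members were found by name among the 43987 probes of a 1-colour Agilent horse array, and 27 probes printed on 45 spots carried the name of 8 of the 9. NLRP3 had no probe under its own name, and 2 probes that only the description column assigns to NLRP3 are given beside the members and counted apart. All mares had been separated from a foal 30 days earlier, 16 by brutal and 16 by progressive weaning, and blood was drawn into tubes that stabilise RNA at once. Every array held the RNA of a different mare, so the spread within a group is spread between animals. No unweaned mares and no earlier blood samples of these mares were analysed here, so each comparison is between the weaning groups at 30 days.

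IL-1β is made as an inactive precursor after a danger or microbial signal and is cut to its active form by caspase-1 (CASP1). Caspase-1 is switched on in the inflammasome, a complex in which a sensor such as NLRP3 recruits the adaptor ASC, the product of PYCARD. IL-18 is cut by the same protease. Active IL-1β binds IL1R1, which signals together with the accessory protein IL1RAP. IL1R2 binds the cytokine without signalling and acts as a decoy, and IL1RN occupies IL1R1 without activating it. Monocytes and neutrophils are the main sources of these transcripts in blood.

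IL1B and IL1RN have the most probes of the members, and a coding-sequence probe of each is shown because those repeated readings are compared below; in neither case is it the brightest. That of IL1B lies at chr15:12329776-12329835 on the minus strand, in coordinates that the array annotation gives for EquCab1. The RefSeq table of the TB-T2T assembly lists 2 neighbouring horse genes with IL1B as a synonym and no gene between them, so a signal from either copy cannot be told apart and IL1B values are uncertain in that sense. The IL1RN probes that have a position lie on the same chromosome, on the plus strand, 294439 bases from the IL1B probes that have a position. The brightest IL1B probe, by which that gene is described below, has no position in the annotation. The pair shown starts at base 308 of its transcript, covers chr15:12624278-12625480 and spans an intron. Both members of the pair carry the same letters except at the capitals, where A12T and A13T separate the first from the second, counted from the 5′ end of the probe.
IL1B: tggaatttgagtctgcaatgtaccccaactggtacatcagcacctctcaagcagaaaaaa
IL1RN, first form: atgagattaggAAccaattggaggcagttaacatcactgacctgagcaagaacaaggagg
IL1RN, second form: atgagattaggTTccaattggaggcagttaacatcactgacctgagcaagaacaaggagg

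The decoy receptor IL1R2 varied more between mares than any other member tested, and its only probe is shown because all its values rest on these letters. The 2 CASP1 probes are shown because they followed each other less closely than the probes of IL1B or IL18. The first CASP1 probe lies at chr7:11248330-11248855 on the minus strand and spans an intron. The IL1R2 probe and the second CASP1 probe have no position in the annotation.
IL1R2: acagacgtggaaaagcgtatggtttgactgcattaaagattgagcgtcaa
CASP1, first probe: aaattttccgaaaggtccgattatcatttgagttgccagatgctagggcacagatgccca
CASP1, second probe: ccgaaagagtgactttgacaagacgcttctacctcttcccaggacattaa

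Arrays were measured on 4 slides of 8, each slide holding 4 mares of either group. The 75th percentile of signal ranged from 339.5 to 646.0 intensity units, and 53.0% to 66.0% of spots were well above background. A level is given here as log2 of a probe's signal relative to that percentile of its own array, so a difference of 1 is a 2-fold change. The array of progressive mare 16 had 851 of the 2483 spots flagged as outliers, so its part in each result is given where it matters. Of the genes listed as blood cell markers, 18 of 25 for neutrophils and 15 of 16 for T cells were well above background on all 32 arrays. The erythroid (6 of 17), platelet (7 of 15), eosinophil and basophil (3 of 11) and endothelial (1 of 9) lists had smaller shares. Of the members, 7 had a tested probe, which means that 8 or more arrays in either group read it well above background, and 24 of the 27 probes passed. A member is described by its brightest tested probe.

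No member differed between the weaning groups after adjustment over the 26379 probes tested. In the limma fit, adjusted p-values of the members were 0.996 or more, and 0 of all tested probes, 0.0%, passed an adjusted p of 0.05. IL1B, IL1RN, PYCARD, IL18, IL1RAP and CASP1 had lower means in progressively weaned mares and IL1R2 a higher one, and the median difference of the 7 was -0.23 against -0.014 over all tested probes. Lower means were common among all probes too, at 14695 probes or 55.7%. At an unadjusted p of 0.05 IL1RN was the only member past the threshold on its brightest probe, against 728 probes or 2.76% of all tested. In whole blood, fewer cells of a type and less RNA per cell cannot be told apart.

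IL1B levels in brutally weaned mares ran from 0.57 through a median of 1.0 to 2.04, and in progressively weaned mares from -0.035 through 0.95 to 1.90. The groups overlapped through most of this range, with 4 progressive mares below every brutal mare and 2 brutal mares above every progressive mare. The means were 1.21 ± 0.47 (SD, n = 16) and 0.89 ± 0.49 (SD, n = 16). The difference, progressive minus brutal, was -0.32 (SE 0.16, 95% interval -0.66 to 0.014), a ratio of 0.801, with an unadjusted p of 0.060 in limma. Within slides the difference was -0.41, -0.43, -0.16 and -0.29, so the mean was lower on each of the 4 slides. Of all tested probes, 2578 or 9.77% had a lower progressive mean on all 4 slides.

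All 5 IL1B probes had a lower mean in progressive mares, by -0.32 to -0.42, and each was lower on all 4 slides. Unadjusted p-values were 0.023 to 0.060, and 3 of the 5 probes were under 0.05. Among all tested probes, 497 or 1.88% were lower with an unadjusted p under 0.05. Probes of a gene measure the same RNA and are not independent: Pearson r between IL1B probes was 0.943 to 0.979 over the 32 arrays. They lie on 3 stretches of the transcript at most, since 2 pairs overlap in sequence.

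IL18, the other cytokine that caspase-1 releases, ran from 1.94 through 2.69 to 4.63 in brutal mares and from 0.94 through 2.60 to 3.61 in progressive mares. Brutal mare 5 stood highest at 4.63, and the next mare was progressive 3 at 3.61. The difference was -0.23 (SE 0.24, 95% interval -0.71 to 0.25; unadjusted p = 0.341, limma), and without brutal mare 5 it was -0.10. By slide it was 0.047, -0.38, -0.63 and 0.049, so it lay below 0 on 2 slides and just above 0 on the others. The 2 IL18 probes, which do not overlap, followed each other with r = 0.991. The fold between the highest and lowest mare was 12.9, and the SD within groups was larger than that of 93.6% of tested probes.

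IL1RN, which codes for the receptor antagonist, had the smallest p of the members. Its level ran from 3.96 through a median of 4.52 to 5.13 in brutal mares and from 3.03 through 4.12 to 4.76 in progressive mares. The groups overlapped, but 14 of 16 brutal mares were above the progressive median and 5 were above every progressive mare. The means were 4.52 ± 0.37 (SD, n = 16) and 4.15 ± 0.43 (SD, n = 16). The difference was -0.37 (SE 0.14, 95% interval -0.65 to -0.089), a ratio of 0.774, with an unadjusted p of 0.011 and an adjusted p of 0.996 in limma. It was -0.36, -0.17, -0.22 and -0.72 on the 4 slides. Leaving out each mare in turn gave -0.41 to -0.29, the weakest value without progressive mare 15, the lowest of all.

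The 11 IL1RN probes all had a lower progressive mean, by -0.28 to -0.47, and 8 of them had an unadjusted p under 0.05, against 1.88% of all tested probes lower at that p. On 10 of the 11 the mean was lower on all 4 slides, against 9.77% of all tested probes. Of these probes, 9 start within bases 305 to 309 of the transcript and cover nearly the same letters, so they count as repeated readings of a single stretch. Between all pairs of IL1RN probes r was 0.867 to 0.988. The 4 pairs of forms that differ only by AA or TT, as printed above, gave group differences of -0.28 to -0.36 on the TT form and -0.30 to -0.47 on the AA form. The printed pair gave -0.36 (TT) and -0.30 (AA), and the printed IL1B probe -0.42. The difference between the forms of a pair within an array had an SD over mares of 0.12 to 0.28.

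**Figure D1:**
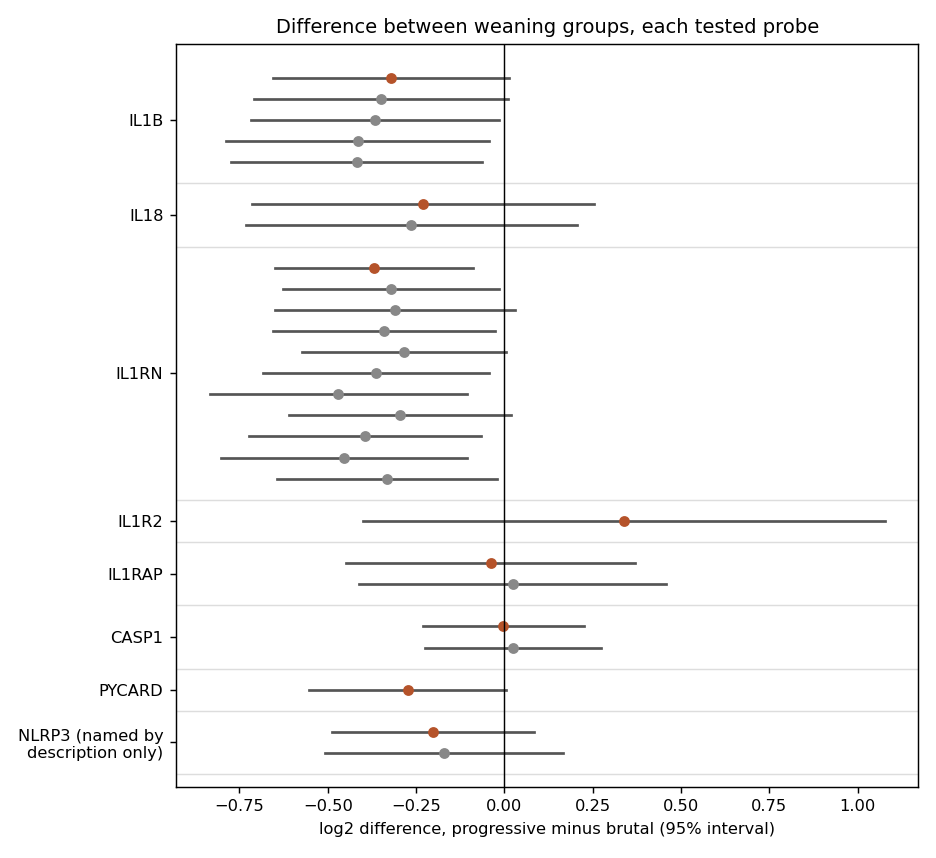
Difference in mean log2 level, progressive minus brutal, for each tested probe of the members and for the 2 probes described as NLRP3, with 95% intervals from limma (horizontal axis). Orange points are the brightest probe of each gene and grey points its other probes. All 5 IL1B and all 11 IL1RN points lie left of 0, and the IL1R2 interval, from -0.40 to 1.08, is the widest.

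The antagonist and the cytokine were also set against each other within each mare. Since levels of different probes are not comparable, the IL1RN minus IL1B difference of log2 levels was used only to compare the groups. Its SD was 0.33 in brutal and 0.48 in progressive mares (n = 16 each), and the group difference was -0.048 (two-sided permutation test with 100000 relabellings, p = 0.741; within slides, p = 0.751). By slide it was 0.044, 0.26, -0.063 and -0.43. The group difference in this balance of antagonist to cytokine was smaller than the spread between mares, and its direction changed with the slide. The matching balance of IL1R2 over IL1R1 was not computed because IL1R1 was not well above background on most arrays.

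IL1R2 was the only member with a higher mean in progressive mares. Its level ran from -1.84 through 0.036 to 1.09 in brutal mares and from -2.06 through 0.30 to 3.18 in progressive mares. Of the progressive mares, 4 were above every brutal mare, and progressive mare 16 at 3.18 stood apart from the next, progressive mare 3 at 1.82. The means were -0.043 ± 0.78 (SD, n = 16) and 0.29 ± 1.30 (SD, n = 16). The difference was 0.34 (SE 0.36, 95% interval -0.40 to 1.08; unadjusted p = 0.360, limma), and 0.14 without progressive mare 16. It was 0.82 and 0.83 on slides 1 and 4 and -0.13 and -0.18 on slides 2 and 3.

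The highest mare had 37.9 times the IL1R2 signal of the lowest, and 14.7 times when progressive mare 16 was left out. The SD within groups, 1.07, or 0.95 without that mare, was with all mares larger than that of 98.7% of tested probes. IL1B and IL1RN, with folds of 4.22 and 4.28 between the extreme mares, spread far less.

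The signalling receptor IL1R1 was at the limit of the array. Its brighter probe was well above background on 6 of 32 arrays, 3 in each group, and its other probe on 1, so neither was tested and no fold is given. IL1RAP, the accessory chain shared with other receptors of the family, was dim as well, with its brighter probe well above background on 19 of 32 arrays. Its difference was -0.038 (SE 0.20, 95% interval -0.45 to 0.37; unadjusted p = 0.850, limma), and 0.024 on its other tested probe. These 2 probes overlap in sequence, and r between them was 0.695.

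In the inflammasome, CASP1 ran from 1.97 through 2.54 to 3.02 in brutal mares and from 1.99 through 2.36 to 3.10 in progressive mares. The ranges were nearly the same. The means were 2.45 ± 0.34 (SD, n = 16) and 2.45 ± 0.30 (SD, n = 16), and the difference was -0.0028 with a 95% interval of -0.23 to 0.22 (unadjusted p = 0.980, limma). Its sign changed with the scaling of the arrays. The second CASP1 probe, the one that ends near the stop codon, gave 0.024 (SE 0.12), and r between the 2 probes was 0.686.

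PYCARD, the adaptor ASC, ran from 3.31 through 4.07 to 4.79 in brutal mares and from 3.10 through 3.86 to 4.41 in progressive mares. The groups overlapped, with 3 brutal mares above all progressive mares and 2 progressive mares below all brutal mares. The difference was -0.27 (SE 0.14, 95% interval -0.55 to 0.0049), a ratio of 0.827, with an unadjusted p of 0.054 in limma. On slide 1 it was 0.027, and on the others -0.45, -0.26 and -0.41.

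PYCARD moved with the brightness of the array. Its r with the 75th percentile of signal was -0.834 over the 32 arrays (rho = -0.831, permutation p adjusted over 16 relations = 0.00016 for each). The 16 relations set 8 genes against that percentile and against the percent of spots well above background, and PYCARD was the only member for which such a relation passed. That percentile is also the divisor of every level. The percentile ran from 339.5 to 607.9 in brutal mares and from 381.5 to 646.0 in progressive mares. With its log2 as a covariate, an alternative chosen after the data were seen, the PYCARD difference was -0.14 (unadjusted p = 0.096, limma). The IL1B difference was -0.33, against -0.32 without the covariate. That of IL1RN was -0.31 (unadjusted p = 0.026, limma), against -0.37 without it.

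The 2 probes that the description column calls NLRP3 carry a transcript identifier in place of a gene name. The brighter lies at chr14:92239654-92242716 on the minus strand. Its level ran from -1.99 through -0.63 to -0.028 in brutal mares and from -1.50 through -0.91 to -0.40 in progressive mares. The difference was -0.20 (SE 0.14, 95% interval -0.49 to 0.082; unadjusted p = 0.157, limma), lower on all 4 slides, and -0.17 on the other probe. Of the brutal mares, 5 were above every progressive mare, while the lowest of all was brutal mare 4.

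**Figure D2:**
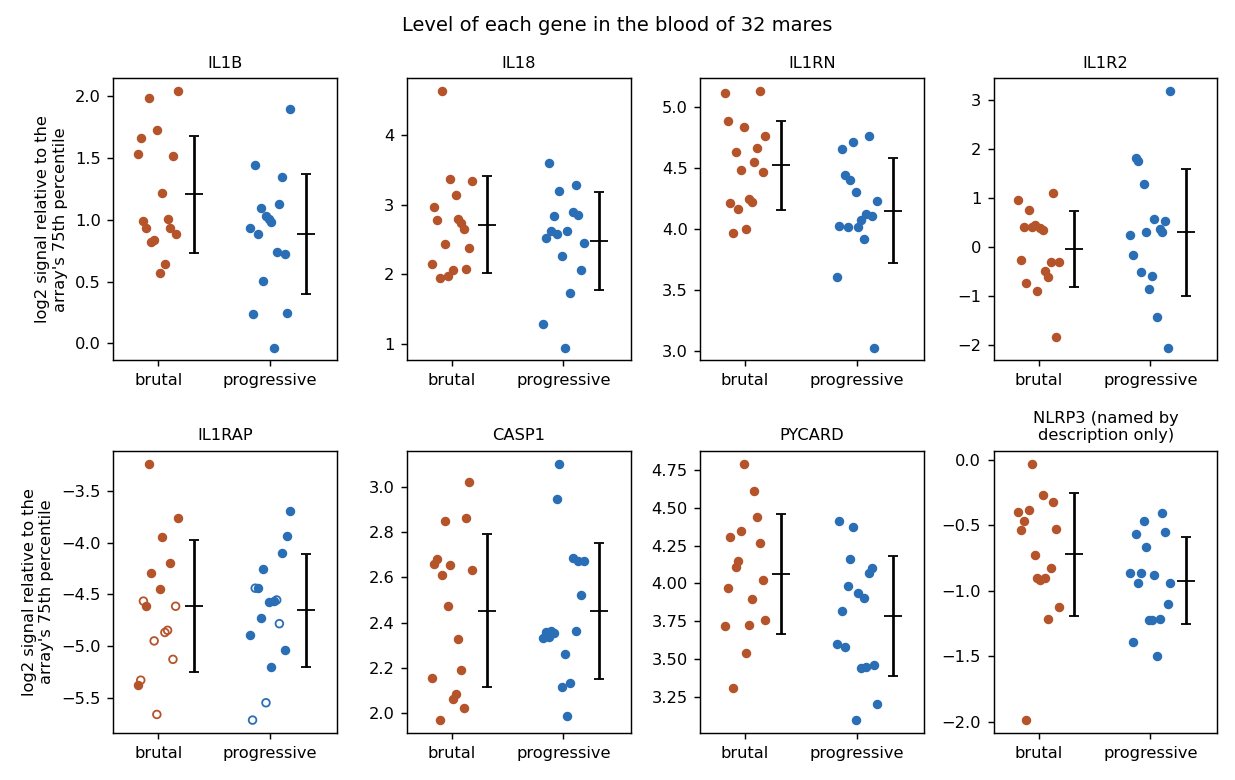
Level of each gene in each of the 32 mares, as log2 signal relative to the array's 75th percentile (vertical axes, which differ between panels), by weaning group. Filled points were well above background and open points were not. Black bars are the group mean ± SD (n = 16). The groups overlap in every panel, IL1R2 reaches 3.18 in progressive mare 16 and IL18 reaches 4.63 in brutal mare 5.

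**Figure D3:**
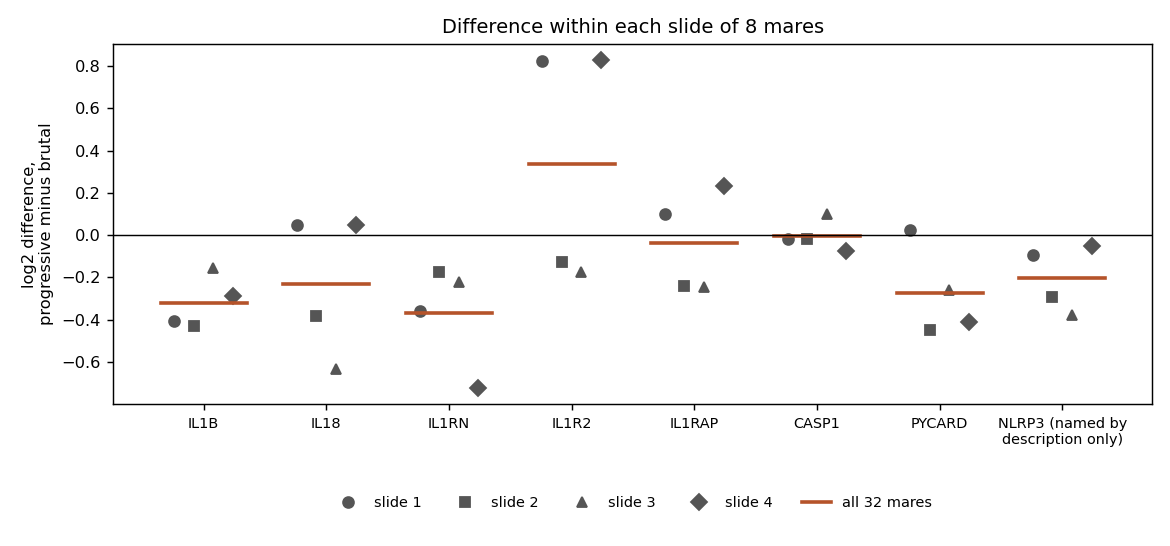
Difference in mean log2 level, progressive minus brutal, within each slide of 8 mares (symbols) and over all 32 mares (orange lines). IL1B, IL1RN and the NLRP3-described probe lie below 0 on all 4 slides, and IL1R2 lies at 0.82 and 0.83 on 2 slides and below 0 on the others.

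In the limma test of the interaction of group and slide, the smallest unadjusted p of a member was 0.509, for IL1RN. With 4 mares of a group on a slide no probe passed adjustment, and this does not show that the differences were alike on the slides.

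Over the 32 mares most pairs of members had a positive r, though few relations passed adjustment. A pair that did not pass is not thereby shown to vary separately, and a component shared by all members was not tested. Of 28 pairs, counting the NLRP3-described probe, 24 had a positive r, and only IL1B with IL1RN passed an adjusted permutation p of 0.05 by Pearson's r. For that pair r was 0.632 (permutation p = 0.00014, adjusted over the 28 pairs 0.00392) and Spearman's rho 0.644 (adjusted 0.0028). It was 0.635 without the 2 mares farthest from the median IL1B level, 0.707 within brutal and 0.472 within progressive mares, and 0.340 to 0.741 within slides. Mares with more of the cytokine transcript had more of the antagonist transcript.

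By rank, 4 further pairs passed: IL1B with IL18 (rho 0.498), IL1RN with IL18 (0.514), IL1RN with the NLRP3-described probe (0.469) and IL1R2 with that probe (0.506), with adjusted permutation p of 0.031, 0.031, 0.042 and 0.031. Their Pearson r, 0.452, 0.449, 0.436 and 0.391, did not pass after adjustment. PYCARD stood apart from IL1B, with r = 0.069 and rho = 0.016, and the sign of that value changed with the scaling. IL1RAP and PYCARD ran against each other, r = -0.382, without passing (adjusted permutation p = 0.110). Their r with the array's 75th percentile also had opposite signs, 0.386 for IL1RAP (adjusted permutation p = 0.115) and -0.834 for PYCARD. The part of array brightness in this pair was not tested.

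Blood is a mixture, so each member was set against scores of 9 cell marker lists, each score being the mean z value of the list's measured genes, over 72 pairs. Of these, 16 passed an adjusted permutation p of 0.05. Genes of a list count alike in its score, and the brightest of the neutrophil list were S100A12 and S100A9, calcium-binding proteins of granulocytes. The neutrophil score passed with 5 genes: the NLRP3-described probe (r = 0.712), IL1RN (0.700), IL18 (0.656), IL1R2 (0.629) and IL1B (0.611). Their adjusted permutation p was 0.0018 or less, and by rank rho was 0.587 to 0.707 with adjusted permutation p of 0.0050 or less. Within slides these r were all positive, from 0.198 to 0.883 for IL1B and from 0.576 to 0.823 for IL1R2. IL1RAP, CASP1 and PYCARD did not pass, with r of 0.295, 0.399 and 0.185, although CASP1 passed by rank (rho 0.448, adjusted permutation p = 0.048). Another 3 relations passed by rank alone: PYCARD with the NK score (rho 0.537, adjusted permutation p = 0.013), IL1R2 with the eosinophil and basophil score (-0.449, 0.048) and the NLRP3-described probe with the platelet score (0.444, 0.048).

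The brightest genes of the monocyte list were FCN1, a ficolin, and CTSS, a lysosomal protease. The monocyte score had its highest r with the NLRP3-described probe (r = 0.826, and 0.528 to 0.900 within slides) and CASP1 (r = 0.632, and 0.443 to 0.646 within slides). It also passed with IL1RN (0.473, and -0.105 to 0.765 within slides) and IL1R2 (0.448, and 0.391 to 0.850 within slides) but not with IL1B (0.298). All 4 of the passing relations also passed by rank (rho 0.517 to 0.778). IL1RN followed the platelet score with r = 0.653, which was 0.458 without the 2 mares farthest from the median score. IL1B was lower where the T cell score was higher (r = -0.551, and -0.393 without 2 such mares). The same held for IL1RAP (r = -0.497, and -0.297 without 2 such mares), which was well above background on only 19 of 32 arrays. PYCARD followed the endothelial score (r = 0.623, and 0.470 without 2 such mares) and the erythroid score (0.498, and 0.447 without 2 such mares). Its level also had r = -0.834 with the array's 75th percentile. The part of array brightness in the relations of PYCARD with these scores and with the NK score was not tested. The endothelial score rests on 2 measured genes of the 9 listed, PECAM1 and ROBO4, of which 1 was well above background on all 32 arrays. The other 2 relations past the threshold were IL1B with the eosinophil and basophil score (0.457) and the NLRP3-described probe with the B cell score (-0.522). For IL1B that r was 0.741 within brutal and 0.175 within progressive mares. The eosinophil and basophil score rests on 5 measured genes of the 11 listed, of which 3 were well above background on all 32 arrays. By rank the T cell and erythroid relations did not pass, with adjusted permutation p of 0.077 and 0.075.

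**Figure D4:**
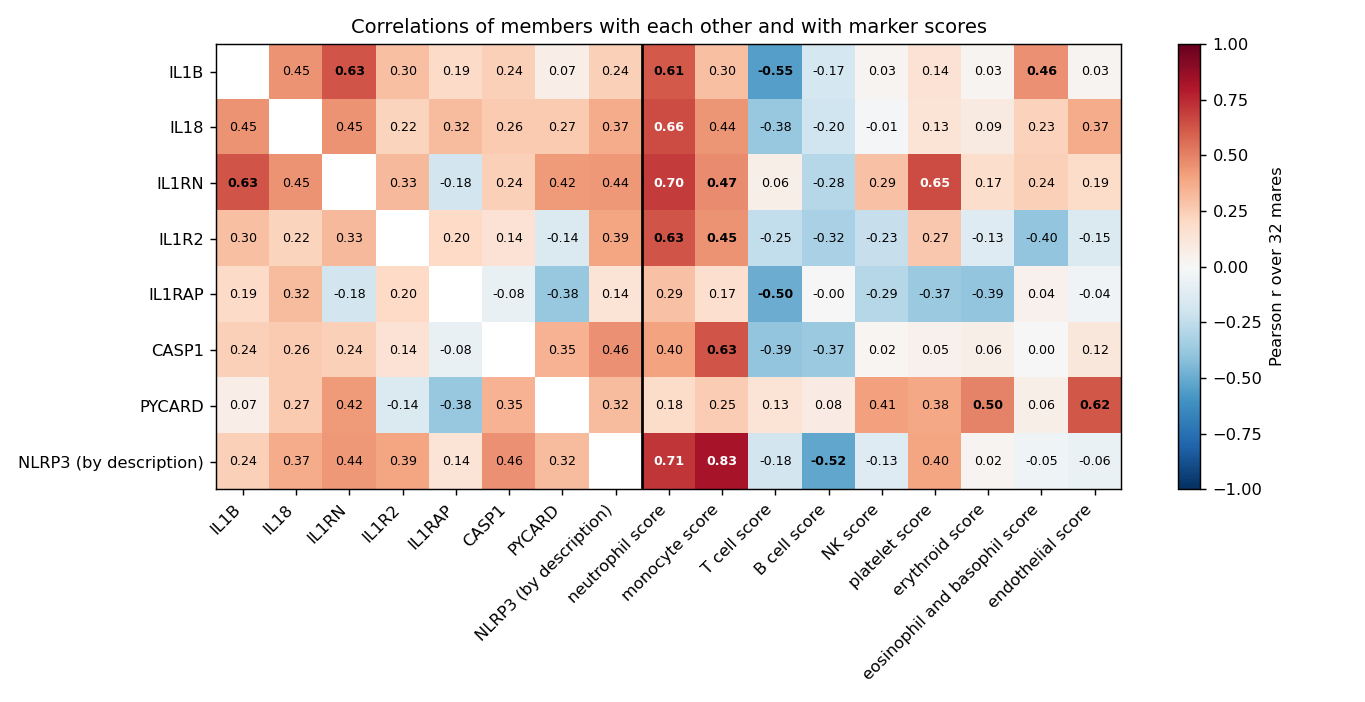
Pearson r over 32 mares between the members (left block) and between members and the scores of 9 cell marker lists (right block), as a colour from -1 to 1 with the value printed. Bold values passed an adjusted permutation p of 0.05. The NLRP3-described probe and the monocyte score give the highest value, 0.83, and PYCARD has low values against IL1B and the neutrophil score.

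**Figure D5:**
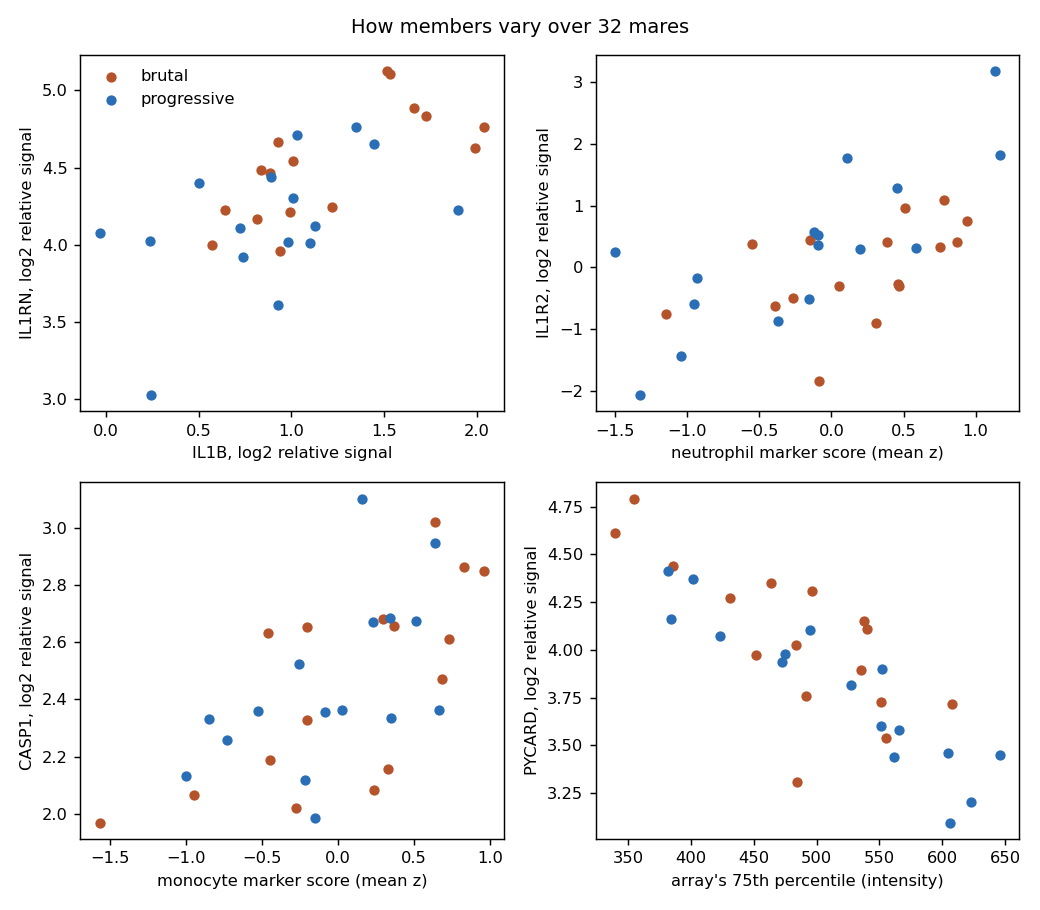
Each point is a mare, orange for brutal and blue for progressive weaning. The panels plot IL1RN against IL1B (log2 relative signal), IL1R2 against the neutrophil marker score, CASP1 against the monocyte marker score, and PYCARD against the array's 75th percentile in intensity units. The first 3 panels rise (r = 0.632, 0.629 and 0.632) and the PYCARD panel falls (r = -0.834).

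The marker lists were also read between the groups, where over all tested probes 55.7% had lower progressive means and 2.76% an unadjusted p under 0.05. No marker gene passed adjustment. Of 19 measured neutrophil genes of the 25 listed, 18 had lower means in progressive mares, with a median difference of -0.18 and 2 at an unadjusted p under 0.05. The neutrophil score ran from -1.15 to 0.94 in brutal and from -1.50 to 1.17 in progressive mares. S100A12 and S100A9 had differences of -0.14 and -0.24. Of 13 measured monocyte genes of 16 listed, 7 were lower, with a median of -0.022 and scores of -1.57 to 0.96 in brutal and -1.0 to 0.66 in progressive mares. All 9 measured platelet genes of 15 listed were lower, with a median of -0.37, 4 of them at an unadjusted p under 0.05, and scores of -0.68 to 1.61 and -1.63 to 1.06. SELP and GP9, the brightest of them, had differences of -0.30 and -0.34. Of 7 measured erythroid genes 5 were lower, with a median of -0.47, and of 16 T cell genes 8 were lower, with a median of -0.010. Of 9 B cell genes 4 were lower, with a median of 0.0019. Of 11 NK genes 8 were lower, with a median of -0.15 and 1 at an unadjusted p under 0.05. Of 5 eosinophil and basophil genes 4 were lower, with a median of -0.092, and the 2 measured endothelial genes were lower, with a median of -0.16.

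With the neutrophil and monocyte scores as covariates, the IL1B difference was -0.13 (unadjusted p = 0.357, limma) and the IL1RN difference -0.22 (unadjusted p = 0.060, limma). Both were smaller than without the scores. IL18 went to 0.034, and PYCARD was -0.29 (unadjusted p = 0.055, limma), about as large as without them. The IL1R2 difference grew to 0.78 (SE 0.28, unadjusted p = 0.0083, limma) but did not pass adjustment (adjusted p = 0.9997). In the fit without progressive mare 16, chosen after the data were seen, it was 0.60 (unadjusted p = 0.037, limma). With neutrophil, T cell, erythroid and platelet scores as covariates, IL1B was -0.20, IL1RN -0.14, PYCARD -0.12 and IL1R2 0.82 (unadjusted p = 0.012, limma). The part of blood cell makeup in the group differences was not tested beyond these fits, since the scores are built from the same arrays. After removal of the neutrophil and monocyte scores, a choice made after the data were seen, r between IL1B and IL1RN was 0.331 (adjusted permutation p = 0.308), and r between IL1RN and IL18 was -0.043.

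Further genes of the pathway were read from 4 lists, to be set against the 55.7% of all tested probes with lower means and the 2.76% with an unadjusted p under 0.05. Among other ligands, receptors and binding proteins of the family, only 3 of 14 genes on the array were tested, 2 of them lower. IL18R1 and IL18RAP, the chains of the IL-18 receptor, had differences of -0.32 (SE 0.16, unadjusted p = 0.060, limma) and -0.16 (SE 0.15, unadjusted p = 0.304, limma). IL18R1 was lower on all 4 slides.

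Of 23 tested genes of receptor signal transduction, 16 had lower means, with a median of -0.070. MYD88, the adaptor that joins the receptor to its kinases, was the only gene with an unadjusted p under 0.05. Its mean was 5.76 ± 0.25 (SD, n = 16) in brutal and 5.55 ± 0.30 (SD, n = 16) in progressive mares, a difference of -0.21 (SE 0.099, unadjusted p = 0.046, limma). TNIP1, a partner of the inhibitor A20, followed with -0.16 (unadjusted p = 0.056, limma). MYD88 correlated with IL1RN over the mares at r = 0.845 and with IL1B at 0.554, given as a description.

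Of 26 tested inflammasome sensors, partners and pyroptosis genes, 18 had lower means, with a median of -0.040 and none at an unadjusted p under 0.05. The smallest p belonged to NLRX1, a mitochondrial member of the NLR family, with -0.23 (SE 0.14, unadjusted p = 0.099, limma), and to NLRP12, with -0.30 (SE 0.21, unadjusted p = 0.151, limma).

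Of 22 tested genes that interleukin 1 is known to induce, 16 had lower means, with a median of -0.13 against -0.014 over all probes, and 2 had an unadjusted p under 0.05. NFKB2, an NF-kB subunit, differed by -0.17 (SE 0.074, unadjusted p = 0.028, limma) and BCL3, a nuclear IkB protein, by -0.30 (SE 0.14, unadjusted p = 0.046, limma). None of the 74 tested genes of the 4 lists passed adjustment, with adjusted p-values of 0.996 or more. Over the mares r with IL1B was -0.127 for NFKB2 and 0.507 for BCL3, given as a description.

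The genes most like each member over the mares, by Pearson r on the brightest tested probe among 8879 named genes, differed from member to member. For IL1B they included RUBCNL (r = 0.759) and LRIF1 (0.753), and for IL1RN they were GPSM3 (0.883), PAFAH1B1 (0.874) and FCER1G (0.871). For IL1R2 they were UNC93A (0.872), TBC1D2 (0.831) and PFKFB3 (0.780), and within brutal mares the last of these was 0.430. IL18 was closest to GYG1 (0.852), SLPI (0.828) and TBC1D23 (0.807), and CASP1 to CD86 (0.787), MYOZ1 (0.767) and REXO2 (0.749). PYCARD was closest to S100A4 (0.923), UQCR11 (0.882) and NHP2 (0.878), and IL1RAP to ZBTB34 (0.746), SYK (0.739) and GDPD3 (0.712). The NLRP3-described probe was closest to PSAP (0.884), CTSZ (0.875) and PLBD1 (0.862), among 8880 genes. These values describe the same 32 arrays, in which array brightness and cell makeup are shared across genes.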

How the data were processed

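The authors deposited scanner output, 1 file per mare, in which Agilent Feature Extraction 10.10.1.1 had turned each spot into a background-corrected intensity before deposit, per the file headers. They also deposited a table of log2 values for 25619 probes, used as an alternative, whose scale and centring are not stated and whose column medians are 8.397 to 8.399. From the intensity of 61657 non-control spots, log2 of signal over the array's 75th percentile was taken, outlier spots were removed and spots of a probe were averaged. No spot was saturated. Tests used limma 3.58.1 in R 4.3.3, on group only, with Benjamini-Hochberg adjustment over 26379 probes. The limma fit was also run on simulated data, in which probes were independent and changes were larger than any member difference of the main fit. That run does not bear on power for differences as small as those of the members. Permutation tests were two-sided with 100000 draws.

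Members and gene lists were chosen with earlier results of these data known. Text names the members, list genes with an unadjusted p under 0.05 or the 2 smallest p of a list, the 2 brightest markers of a list where it is described, and the 3 genes most like each member. A gene that this rule names for IL1B is not reported here. Alternatives were other backgrounds and scalings, slide as a block, filters, marker covariates, other probes and each slide or mare left out. Probe coordinates are those of the array annotation (EquCab1). Levels of different probes were not ranked against each other; their within-array difference was used only between groups. Arrays limit precision by their number, 16 per group.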

Additional observations from a re-analysis of the deposited data

How the results depend on the processing

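No member passed an adjusted p of 0.05 under any alternative run, or 0.10 in the main setting, while 1 passed an unadjusted p of 0.05. IL1B and IL1RN kept lower progressive means under all 55 alternatives each, at -0.43 to -0.13 and -0.72 to -0.14, and IL1R2 kept a higher one except on slides 2 (-0.13) and 3 (-0.18) alone. Members lower numbered 6 of 7 in the main setting, 4 to 7 under most alternatives (4 of 6 in the series table), and 3 of 7 on slide 1 alone and with neutrophil and monocyte covariates, where their median was 0.027 and 0.0095.

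Differences near 0 changed sign often, and the cause was not tested. CASP1 was 0.0047 with normexp background, 0.025 with quantile normalisation, 0.019 scaled on detected probes, 0.022 in the series table, 0.0024, 0.0017 and 0.022 without slides 1, 2 and 4, 0.099 on slide 3, 0.0095 and 0.080 with the covariate sets, 0.023 with array brightness and 0.011 over its probes. Leaving out a mare gave -0.046 to 0.035. IL1RAP was 0.10 and 0.23 on slides 1 and 4, 0.029 and 0.031 without slides 2 and 3, 0.076 with neutrophil and monocyte covariates (0.00024 without progressive mare 16), 0.039 with array weights, and -0.11 to 0.053 with a mare left out. IL18 was 0.047 and 0.049 on slides 1 and 4, 0.034 with neutrophil and monocyte covariates and 0.16 with these and no progressive mare 16. PYCARD was 0.027 on slide 1.

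The IL1RN minus IL1B balance was 0.014 in the series table, 0.016 over all probes, 0.044 and 0.26 on slides 1 and 2, 0.080 without slide 4 and -0.10 to 0.014 with a mare left out. The r of IL1B and PYCARD was -0.0047 with quantile normalisation, -0.032 scaled on detected probes and -0.046 after removal of group means. After removal of neutrophil and monocyte scores the r of IL1RN and IL18 was -0.043. Counts of correlated pairs stayed within 1.5 times. No paired analysis was possible because the labels give no replicate numbers and pair no mares. IL1R1 and IL1RAP were limited by signal near background.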
